A study of Mus musculus with 8 samples.

Results

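The mitosis genes of G2 and M phase described here are 46 genes that act when a cell enters mitosis, separates its chromosomes and divides. They were taken as a list of symbols and were found in the deposited table through their GENCODE M21 identifiers. All 46 of the 46 were found among 26589 genes, and none was lost to a filter on low values. The table covers 8 bulk RNA-seq libraries made from B cells of mouse spleen, 4 from cells sorted as IL-10+ and 4 from cells sorted as IL-10-. The IL-10+ cells and the IL-10- cells came from the same kind of culture: purified B cells of IL-10-eGFP Tiger mice, a strain in which green fluorescent protein reports transcription of Il10, kept for 48 h with 3 µg/ml lipopolysaccharide (LPS, a component of the bacterial outer membrane that B cells sense through Toll-like receptor 4) and then sorted on the reporter. The treatment field of all 8 libraries says untreated, while their protocols describe the LPS culture; the protocols were followed. Each group has replicates numbered 1 to 4, and no label says whether a number stands for a mouse, a pool or a culture, so p-values describe only the spread among these libraries, and that spread may be technical. The age of the animals was not given in the sources used here.

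Mitosis begins when the kinase Cdk1, bound to cyclin A or cyclin B, is freed of inhibitory phosphates by the Cdc25 phosphatases. It ends when the anaphase-promoting complex, a ubiquitin ligase switched on by Cdc20, marks cyclin B and securin for destruction, so that sister chromatids part and the cell divides. Transcripts of most of these proteins are low in G1, build up through G2 and fall after division, under factors that include FoxM1, B-Myb with the MuvB core, and NF-Y. LPS drives resting B cells into several rounds of division, and those that become plasmablasts, the dividing precursors of plasma cells, do so in the course of these divisions.

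The mitosis genes lay higher in IL-10+ cells than in IL-10- cells, by small amounts. The log2 change of FPKM + 1 (FPKM are reads scaled to gene length and library total) was above 0 in 46 of 46 members, while it was above 0 in 39.3% of all 11329 genes tested. Without IL-10- replicate 1 it was above 0 in 41 members. Its median was 0.20 over the members and -0.06 over all genes. The members were chosen with earlier results of these data known, so these shares describe the list and carry no test. Of 46 further mitotic genes, described below, 29 had a log2 change above 0, with a median of 0.08. By size, 1 member, the phosphatase gene Cdc25b, reached 2-fold by the ratio of group means in FPKM, 2 reached 1.5-fold, and 16 lay under 1.1-fold. By limma with Benjamini-Hochberg adjustment over all genes, 13 members rose and 0 fell at an adjusted p under 0.05, and 33 were not called. Across all genes 19.7% were called under the same rule, 10.6% higher and 9.18% lower. Without IL-10+ replicate 3 the members that rose numbered 7, and likewise 7 without IL-10+ replicate 4. At an unadjusted p under 0.05, 21 members were higher and 0 lower. Bulk libraries hold a mean over cells, so a larger share of cells in G2 and M phase and more of these transcripts per cell cannot be told apart.

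Libraries of the same replicate number varied together, and more members passed once that was allowed for. With the replicate number added as a block, 33 members rose and 0 fell, among them all 13 of the fit without it, against 20.4% of all genes that rose and 33.3% that fell. In 38 members the IL-10+ library was the higher one in each of the 4 numbers, which held for 24.3% of all genes. In 16 members the 4 IL-10+ values all lay above the 4 IL-10- values, which held for 12.2% of all genes, and the opposite order was seen in 0 members and 13% of all genes. Within replicates 1 and 2 alone 4 members rose (6.8% of all genes did), and within replicates 3 and 4 alone 21 rose (11.4% of all genes did). The members' median log2 difference was 0.25, 0.16, 0.23 and 0.19 in numbers 1 to 4.

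**Figure D1:**
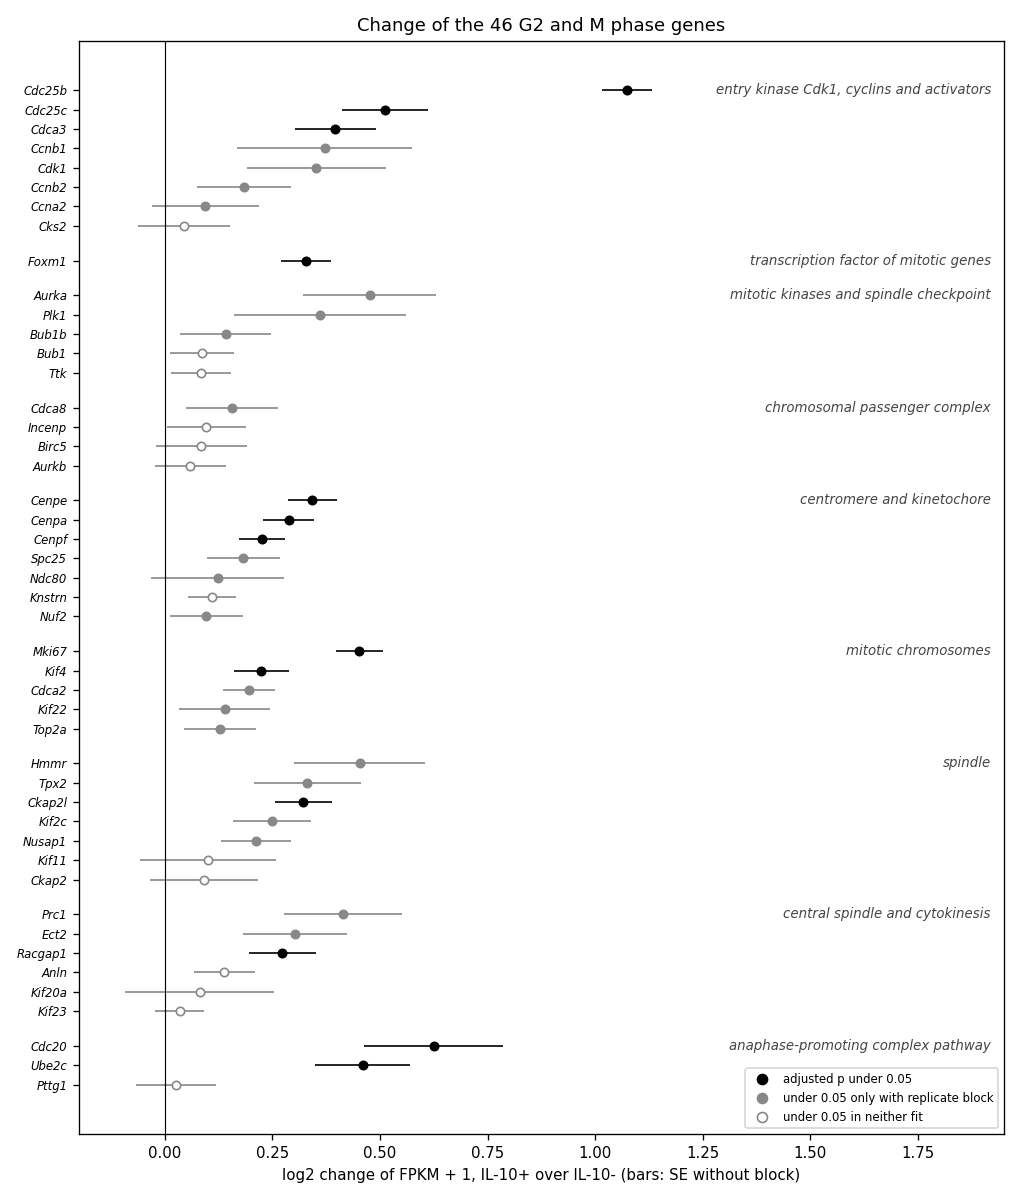
Log2 change of FPKM + 1 of the 46 mitosis genes (x axis, IL-10+ over IL-10-, dimensionless), with genes in rows grouped by role and bars for the standard error of the fit without a replicate block. Filled black points are the 13 genes with an adjusted p under 0.05, grey points pass with the block and not without it, open points pass in neither fit, and all 46 points lie right of 0.

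The members share features of their promoters that the list did not use. RefSeq promoter windows of GRCm38.p6, 250 bases before to 50 after the gene's start, were at hand for 38 members. Searched were the letters TTTGAA, the core of the cell cycle genes homology region that the MuvB complex binds, and CCAAT, the core of the NF-Y box, both on either strand; neither contains the other. TTTGAA stood in 28 of the 38 member windows (73.7%), in 14.6% of the 7735 genes tested here that had a window and in 20.2% of all 27025 genes of the table. CCAAT stood in 30 member windows (78.9%), against 43.7% and 41.1%. Both were present in 25 member windows (65.8%), against 6.12% of the genes tested and 7.97% of the table. In the 100 bases around the start, a window chosen after the positions were seen, TTTGAA stood in 25 of 38 members and in 4.11% of the genes tested. Of 36 further mitotic genes with a window, which are no members, 50% had TTTGAA, 61.1% had CCAAT and 30.6% had both. Among 36 S phase genes with a window, 11.1% had TTTGAA, 63.9% had CCAAT and 8.33% had both. The median log2 change was 0.24 in the 28 members with TTTGAA and 0.10 in the 10 without it. For CCAAT it was 0.28 in the 30 members with it and 0.12 in the 8 without it. Whether the changes differ by motif was not tested. Cdc25b, with the largest change, has CCAAT and no TTTGAA. A match is a description of the letters and shows no binding.

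Windows of 4 genes are printed. Cdc25b has the largest change and Cdc20 the next. Plk1 and Cdk1 are the central kinases, and they were not called over all libraries without the block. The sequences run 5′ to 3′ on the gene's strand, with capitals at TTTGAA and CCAAT or their reverse complements TTCAAA and ATTGG.
Cdc25b (chr2:131186698-131186997, + strand): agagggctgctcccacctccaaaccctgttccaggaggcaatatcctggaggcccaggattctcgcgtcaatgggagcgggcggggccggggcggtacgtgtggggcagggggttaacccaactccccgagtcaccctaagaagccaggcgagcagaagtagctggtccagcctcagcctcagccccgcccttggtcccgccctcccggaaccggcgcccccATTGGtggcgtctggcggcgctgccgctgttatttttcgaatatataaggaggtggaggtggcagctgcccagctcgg
Cdc20 (chr4:118437294-118437593, - strand): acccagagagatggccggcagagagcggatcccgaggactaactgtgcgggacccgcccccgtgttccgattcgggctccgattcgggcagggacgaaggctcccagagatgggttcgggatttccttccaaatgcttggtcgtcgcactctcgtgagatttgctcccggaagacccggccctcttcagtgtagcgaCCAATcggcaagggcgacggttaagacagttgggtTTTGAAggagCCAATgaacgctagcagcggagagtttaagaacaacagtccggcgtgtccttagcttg
Plk1 (chr7:122159185-122159484, + strand): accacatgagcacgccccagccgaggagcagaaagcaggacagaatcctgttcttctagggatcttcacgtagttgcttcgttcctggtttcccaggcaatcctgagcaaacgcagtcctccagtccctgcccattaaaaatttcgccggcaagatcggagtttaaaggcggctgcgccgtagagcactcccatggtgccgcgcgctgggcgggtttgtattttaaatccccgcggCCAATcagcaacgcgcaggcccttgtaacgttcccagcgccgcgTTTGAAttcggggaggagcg
Cdk1 (chr10:69352863-69353162, - strand): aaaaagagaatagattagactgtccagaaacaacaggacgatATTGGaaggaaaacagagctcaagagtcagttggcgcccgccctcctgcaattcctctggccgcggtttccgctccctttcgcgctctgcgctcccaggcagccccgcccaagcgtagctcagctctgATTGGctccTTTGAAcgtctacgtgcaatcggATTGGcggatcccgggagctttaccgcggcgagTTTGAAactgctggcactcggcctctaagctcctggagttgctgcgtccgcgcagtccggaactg
In the Cdc20 window TTTGAA begins at base 233, counted from 1 at the 5′ end, with CCAAT at bases 198 and 243. In the Plk1 window CCAAT begins at base 237 and TTTGAA at base 281. The Cdk1 window holds TTTGAA at bases 180 and 236 and 3 reversed CCAAT boxes. The Cdc25b window has 1 reversed CCAAT at base 223 and no TTTGAA.

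**Figure D2:**
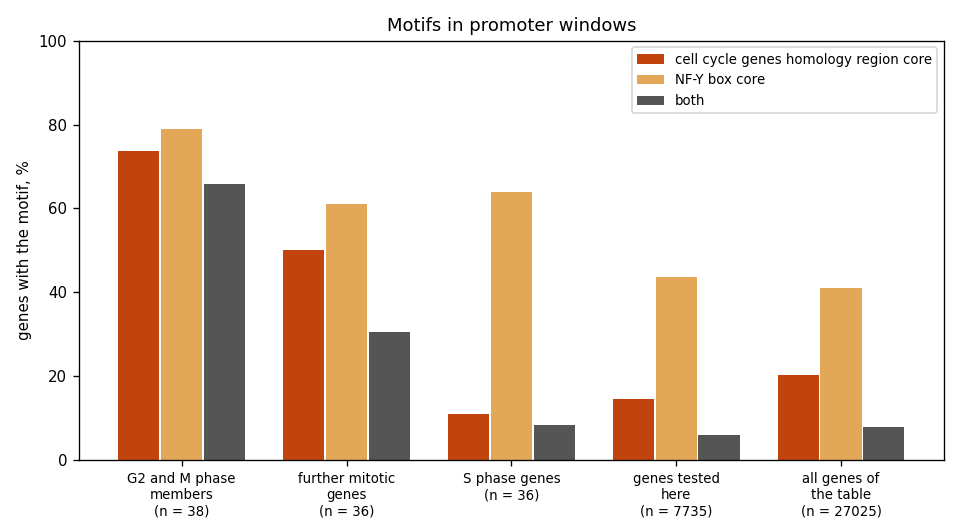
Share of genes (y axis, percent) whose 300-base promoter window holds the core of the cell cycle genes homology region, the NF-Y box core or both, for the mitosis genes, 2 comparison lists, the genes tested here and all genes of the promoter table, with the number of windows under each set. The mitosis genes have the tallest bars for the homology region core (73.7%) and for both motifs (65.8%).

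Among the 8 genes of mitotic entry, which hold Cdk1, its cyclins and its activators, 3 rose, 0 fell and 5 were not called. With the block 7 rose. Of all tested genes 10.6% rose, or 20.4% with the block. Cdc25b (ENSMUSG00000027330, chromosome 2, 131186949 to 131198497 in GRCm38) encodes a phosphatase known from human cells to start the activation of Cdk1 with cyclin B at the centrosome. Its level was 52.4, 52.8, 53.4 and 55.8 FPKM in the 4 IL-10+ libraries, against 24.7, 23.5, 25.7 and 25.9 FPKM in the IL-10- libraries. The groups were far apart and each was narrow. The ratio of means was 2.15, and the log2 change 1.07 (standard error, SE, 0.0587; adjusted p = 1.84e-05). In each replicate number the IL-10+ value was 2.08 to 2.25 times the IL-10- value. Cdc25b stood apart from the other members, of which Cdc20 came next with a log2 change of 0.62.

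Cdc25c, its relative that amplifies Cdk1 activation, stood at 15.2, 17.5, 18.9 and 17.5 FPKM in IL-10+ cells, against 9.75, 12.6, 12.3 and 12.8 FPKM in IL-10- cells. No IL-10+ value fell within the IL-10- range (log2 change 0.51, SE 0.10, adjusted p = 0.00776). Cdca3, which promotes the removal of the Cdk1 inhibitor Wee1, stood at 53.5, 60.2, 66.1 and 62.8 FPKM in IL-10+ cells, against 39.4, 48.1, 48.8 and 47.1 FPKM in IL-10- cells. It rose by 0.40 on the log2 scale (adjusted p = 0.0188). Its call ended without IL-10+ replicate 2 (adjusted p = 0.0517), 3 (0.0611) or 4 (0.0546).

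Cdk1 itself had 24.9, 28.2, 34.6 and 33.2 FPKM in IL-10+ cells, against 17.8, 21.4, 27.8 and 27.7 FPKM in IL-10- cells. The groups overlap, and in every number the IL-10+ library is the higher one. The log2 change was 0.35, with an adjusted p of 0.170, or 0.0012 with the block. Ccnb1, which encodes cyclin B1, ran in parallel, at 45.1, 54.8, 68.9 and 70.1 FPKM in IL-10+ cells, against 32.7, 41.3, 53.3 and 57.9 FPKM in IL-10- cells (adjusted p = 0.247, and 0.000615 with the block). Reads of Ccnb1 can be shared with its processed pseudogene Ccnb1-ps, listed at a mean of 7.34 FPKM, so its values are uncertain to that extent. Cyclin B2 and cyclin A2 had smaller log2 changes, 0.18 for Ccnb2 and 0.09 for Ccna2, called with the block and not without it (adjusted p = 0.0175 and 0.0474). Cks2, a small subunit of Cdk1 complexes and among the most abundant members, averaged 109 ± 7.87 FPKM in the IL-10+ libraries and 106 ± 14.4 FPKM in the IL-10- libraries (SD, n = 4 each), and its adjusted p was 0.812, or 0.408 with the block.

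**Figure D3:**
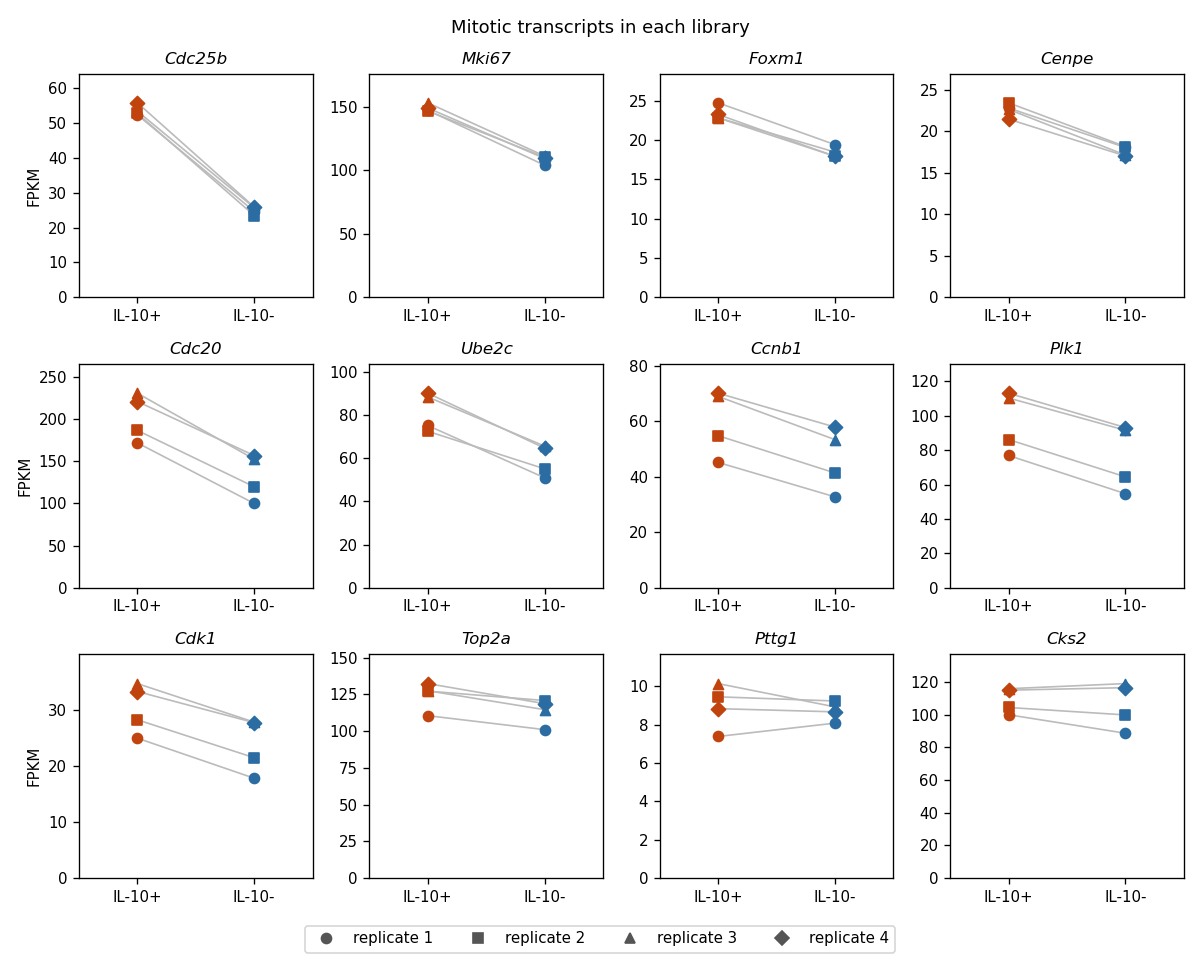
FPKM (y axes, linear from 0) of 12 mitosis genes in the 4 IL-10+ libraries (left, red) and the 4 IL-10- libraries (right, blue), with a marker shape for each replicate number and grey lines joining libraries of the same number. Cdc25b and Mki67 separate the groups with little spread, Ccnb1, Plk1 and Cdk1 run in parallel lines that differ by number, and Pttg1 and Cks2 cross.

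Foxm1, the forkhead factor that drives many genes of this list, rose. It had 24.7, 22.8, 22.8 and 23.3 FPKM in IL-10+ cells, against 19.4, 17.9, 18.5 and 17.9 FPKM in IL-10- cells. The groups did not overlap, and the log2 change was 0.33 (SE 0.0578, adjusted p = 0.00440).

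The 3 members of the anaphase-promoting complex pathway held both a large and the smallest change. Cdc20 (ENSMUSG00000006398, chromosome 4, 118432901 to 118437352), the activator of the complex, was the most abundant member. It had 172, 187, 231 and 221 FPKM in IL-10+ cells, against 99.9, 120, 152 and 157 FPKM in IL-10- cells. The groups did not overlap, and replicates 3 and 4 were the higher ones in each group. The ratio of means was 1.53 (log2 change 0.62, SE 0.161, adjusted p = 0.0266, and 0.000303 with the block). Its call ended without IL-10+ replicate 2 (adjusted p = 0.0514), 3 (0.0788) or 4 (0.0700), without IL-10- replicate 2 (0.0729) and without a filter on low values (0.0669).

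Ube2c, the ubiquitin-conjugating enzyme of the same complex, had 75.2, 72.5, 88.4 and 90.1 FPKM in IL-10+ cells, against 50.9, 55.1, 65.6 and 64.7 FPKM in IL-10- cells (log2 change 0.46, adjusted p = 0.0201). The groups did not overlap, and the call ended without IL-10+ replicate 3 (adjusted p = 0.0643) or 4 (0.0577) and without IL-10- replicate 2 (0.0582). Pttg1 encodes securin, the guard of sister chromatid cohesion that this pathway destroys. It averaged 8.94 ± 1.17 FPKM in the IL-10+ libraries and 8.72 ± 0.489 FPKM in the IL-10- libraries (SD, n = 4 each), with an adjusted p of 0.875, or 0.687 with the block. Exons of Cdc20, Ube2c, Cdc25b, Cdc25c, Prc1, Kif20a and Ccna2, among others, overlap exons of genes on the opposite strand, and the strand setting of the counting was not given in the sources used here.

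Of the 5 mitotic kinases and checkpoint genes 0 were called in either direction by limma without the block (10.6% of all genes rose). At an unadjusted p under 0.05, 1 was higher and 0 lower. With the block 3 rose (20.4% of all genes did). Plk1, the polo-like kinase needed for spindle assembly, had 76.9, 86.2, 110 and 113 FPKM in IL-10+ cells, against 54.7, 64.5, 91.6 and 93.2 FPKM in IL-10- cells. The groups overlap, and numbers 3 and 4 are the high ones in each. Its log2 change was 0.36 (adjusted p = 0.254, and 0.00155 with the block). Aurka, the Aurora kinase of centrosomes, had 45.3, 52.3, 57.9 and 63.4 FPKM in IL-10+ cells, against 30.04, 36.8, 42.6 and 48.0 FPKM in IL-10- cells. Only IL-10+ replicate 1 lay below an IL-10- library, and the adjusted p was 0.0640, or 0.0003 with the block (log2 change 0.48). It passed without IL-10+ replicate 1 (0.0444) or IL-10- replicate 4 (0.0374). Within replicates 3 and 4 alone Aurka and Plk1 passed (adjusted p = 0.0281 and 0.0151), and within 1 and 2 alone neither did (0.0901 and 0.103). Scaling without immunoglobulin and mitochondrial genes, and without the block, gave 1 of the 5 as higher (1293 of 11329 genes rose). Bub1b, a spindle checkpoint kinase-like protein, passed with the block and not without it (log2 change 0.14, adjusted p = 0.0102). The checkpoint kinases Bub1 and Ttk passed in neither fit, with log2 changes of 0.09 and 0.08. With the block and median-of-ratios scaling 4 of the 5 rose (2535 of 11313 genes did). Likewise 4 rose with the block and scaling without immunoglobulin and mitochondrial genes (2551 of 11329 genes did).

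The chromosomal passenger complex, which corrects faulty spindle attachments and steers cytokinesis, had small log2 changes. Its kinase Aurkb averaged 74.2 ± 5.02 FPKM in the IL-10+ libraries and 71.2 ± 6.1 FPKM in the IL-10- libraries (SD, n = 4 each; adjusted p = 0.669). Of its 4 members 0 were called in either direction by limma, also at an unadjusted p under 0.05 (10.6% of all genes rose). With the block, where 20.4% of all genes rose, Cdca8, which encodes borealin, rose (log2 change 0.16, adjusted p = 0.0099, and 0.359 without it). Cdca8 had 24.4, 26.8, 28.8 and 30.2 FPKM in IL-10+ cells, against 20.6, 23.9, 26.6 and 27.9 FPKM in IL-10- cells. These ranges overlap, with the IL-10+ library the higher one in each number. With the block under either other scaling, median-of-ratios or without immunoglobulin and mitochondrial genes, all 4 rose. Of all tested genes 2535 of 11313 and 2551 of 11329 rose in those settings, in that order. The survivin gene Birc5 and the scaffold gene Incenp had log2 changes of 0.08 and 0.10 (adjusted p = 0.628 and 0.511).

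Among 7 centromere and kinetochore genes 3 rose (10.6% of all genes did) and 0 fell, and 6 rose with the block (20.4% of all genes). Cenpe, the kinetochore motor that aligns chromosomes, had 22.8, 23.5, 22.7 and 21.5 FPKM in IL-10+ cells, against 18.1, 18.2, 17.2 and 17.1 FPKM in IL-10- cells. The 4 IL-10+ values all lay above the IL-10- values (log2 change 0.34, SE 0.0566, adjusted p = 0.00324). Cenpa, the histone H3 variant that marks centromeres, had 36.1, 33.96, 35.4 and 33.8 FPKM in IL-10+ cells, against 29.8, 28.5, 28.5 and 26.7 FPKM in IL-10- cells (log2 change 0.29, adjusted p = 0.00961), also with no overlap. Cenpf, a large protein of the outer kinetochore, had 9.04, 8.88, 9.28 and 9.46 FPKM in IL-10+ cells, against 7.50, 7.48, 7.73 and 8.08 FPKM in IL-10- cells (log2 change 0.22, adjusted p = 0.0189). Its call ended without IL-10+ replicate 3 (adjusted p = 0.0605) or 4 (0.0594) and without IL-10- replicate 2 (0.0520).

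The Ndc80 complex, which grips microtubules, has 3 subunits among the members, and none of these was called without the block. Ndc80, Nuf2 and Spc25 had log2 changes of 0.12, 0.10 and 0.18, called with the block (adjusted p = 0.0307, 0.0404 and 0.0146). The fourth subunit, Spc24, is on the list of further mitotic genes and had a log2 change of -0.03 (adjusted p = 0.826, and 0.610 with the block). Ndc80 went against most members by number, at 38.3, 39.9, 28.4 and 27.3 FPKM in IL-10+ cells, against 33.3, 35.6, 26.6 and 26.6 FPKM in IL-10- cells. Replicates 1 and 2 were thus the higher ones in each group. Knstrn, a spindle and kinetochore adaptor, had no overlap between groups but passed in neither fit (log2 change 0.11, adjusted p = 0.220). With the block under either other scaling all 7 centromere and kinetochore genes rose. Of all tested genes 2535 of 11313 rose there with median-of-ratios scaling, and 2551 of 11329 without immunoglobulin and mitochondrial genes.

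Of 5 genes of mitotic chromosomes 2 rose (10.6% of all genes did) and 0 fell, and all 5 rose with the block (20.4% of all genes). Without the block 3 rose with a filter of 5 FPKM in at least 4 libraries. With scaling without immunoglobulin and mitochondrial genes 3 also rose, and with 1 library left out 1 or 2 rose. With median-of-ratios scaling 2 of the 5 rose, and Kif4 was not among them. Mki67 (ENSMUSG00000031004, chromosome 7, 135689784 to 135716361) encodes Ki-67, the proliferation marker that coats mitotic chromosomes. It had 147, 147, 153 and 149 FPKM in IL-10+ cells, against 104, 110, 111 and 109 FPKM in IL-10- cells. The spread within each group was small beside the gap, and replicate numbers hardly differed. The log2 change was 0.45 (SE 0.0545, adjusted p = 0.000558). Kif4, a chromosome-bound kinesin, had 15.5, 16.4, 17.4 and 17.0 FPKM in IL-10+ cells, against 12.8, 14.3, 14.7 and 14.3 FPKM in IL-10- cells. Its groups did not overlap, with an adjusted p of 0.0426 (log2 change 0.22). It was called in 1 of 8 fits with a library removed, and not with median-of-ratios scaling (0.0519). The call was lost without IL-10+ replicate 2 (adjusted p = 0.0959), 3 (0.121) or 4 (0.102) and without IL-10- replicate 1 (0.0784), 2 (0.0779), 3 (0.0619) or 4 (0.0773). Its exons overlap those of Pdzd11 on the opposite strand.

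Top2a, the topoisomerase that untangles sister chromatids, was abundant, at 111, 127, 127 and 132 FPKM in IL-10+ cells, against 101, 121, 115 and 119 FPKM in IL-10- cells. The groups overlap, and the log2 change of 0.13 had an adjusted p of 0.339, or 0.0104 with the block. Cdca2, which brings a phosphatase to anaphase chromosomes, had no overlap between groups and an adjusted p of 0.0542, or 0.00626 with the block. The chromosome kinesin Kif22 was called with the block and not without it (log2 change 0.14, adjusted p = 0.0187).

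Among 7 spindle genes 1 rose (10.6% of all genes did) and 0 fell, and 5 rose with the block (20.4% of all genes). Ckap2l, which encodes a microtubule-binding spindle protein, had 35.8, 38.3, 37.3 and 36.9 FPKM in IL-10+ cells, against 26.6, 31.2, 30.2 and 30.1 FPKM in IL-10- cells. There was no overlap between groups (log2 change 0.32, SE 0.0661, adjusted p = 0.00966). Hmmr, a spindle protein and hyaluronan receptor, had the largest change of this group, 0.45, at 21.4, 25.2, 29.9 and 29.7 FPKM in IL-10+ cells, against 14.5, 18.9, 21.1 and 22.3 FPKM in IL-10- cells. It overlapped through IL-10+ replicate 1, and its adjusted p was 0.0715, or 0.000303 with the block. Without IL-10+ replicate 1 it passed (0.0395), and also within replicates 3 and 4 alone (0.00791) but not within 1 and 2 alone (0.157). Tpx2, the activator of Aurora A at the spindle, the microtubule depolymerase gene Kif2c and Nusap1 had log2 changes of 0.33, 0.25 and 0.21, called with the block (adjusted p = 0.000616, 0.00157 and 0.00471) and within replicates 3 and 4 alone (0.0106, 0.0444 and 0.0267) but not over all libraries without the block. Nusap1 also passed without IL-10- replicate 2 (0.0496). Kif11, the motor that separates spindle poles, and Ckap2 passed in neither fit (log2 changes 0.10 and 0.09).

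Of 6 genes of the central spindle and cytokinesis 1 rose (10.6% of all genes did) and 0 fell. With the block 3 rose (20.4% of all genes did), or 5 with the block under either other scaling. Racgap1, a subunit of centralspindlin that sets the cleavage plane, had 25.3, 26.3, 28.0 and 27.8 FPKM in IL-10+ cells, against 19.6, 21.5, 23.0 and 24.3 FPKM in IL-10- cells. The groups did not overlap (log2 change 0.27, adjusted p = 0.0408). It kept the call in 2 of 8 fits that left out 1 library and lost it without IL-10+ replicate 2 (adjusted p = 0.0869), 3 (0.113) or 4 (0.0995), without IL-10- replicate 1 (0.0691), 2 (0.0954) or 3 (0.0661), and without a filter on low values (0.0601). Its partner in centralspindlin, the kinesin gene Kif23, averaged 19.5 ± 0.683 FPKM in the IL-10+ libraries and 19 ± 0.699 FPKM in the IL-10- libraries (SD, n = 4 each; adjusted p = 0.716, and 0.485 with the block). Prc1, which bundles midzone microtubules, had 11.4, 11.9, 12.4 and 14.4 FPKM in IL-10+ cells, against 6.98, 8.87, 9.46 and 11.7 FPKM in IL-10- cells. It overlapped through IL-10- replicate 4, with a log2 change of 0.41 and an adjusted p of 0.0696, or 0.00303 with the block, and passed without that library (0.0226). Ect2, the activator of RhoA in cytokinesis, passed with the block (log2 change 0.30, adjusted p = 0.00136). It also passed within replicates 3 and 4 alone (0.0378) but not within 1 and 2 alone (0.302). Anln, which encodes anillin, and the kinesin gene Kif20a passed in neither fit (log2 changes 0.14 and 0.08).

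In many members the replicate numbers differed as much as the groups. In 24 members both IL-10+ and both IL-10- libraries of numbers 3 and 4 were above those of numbers 1 and 2 of their own group, and in 4 members (Cenpe, Nusap1, Cdca2 and Ndc80) they were below. In 19 members the difference between numbers was the larger one. Plk1 in numbers 3 and 4 was 1.37 times its level in numbers 1 and 2 in IL-10+ cells and 1.55 times in IL-10- cells, and Kif20a 1.36 and 1.37 times. For Mki67 the same ratios were 1.03 and 1.03 and for Cdc25b 1.04 and 1.07. These splits were chosen with earlier results known and carry no test. What the numbers stand for was not tested.

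**Figure D4:**
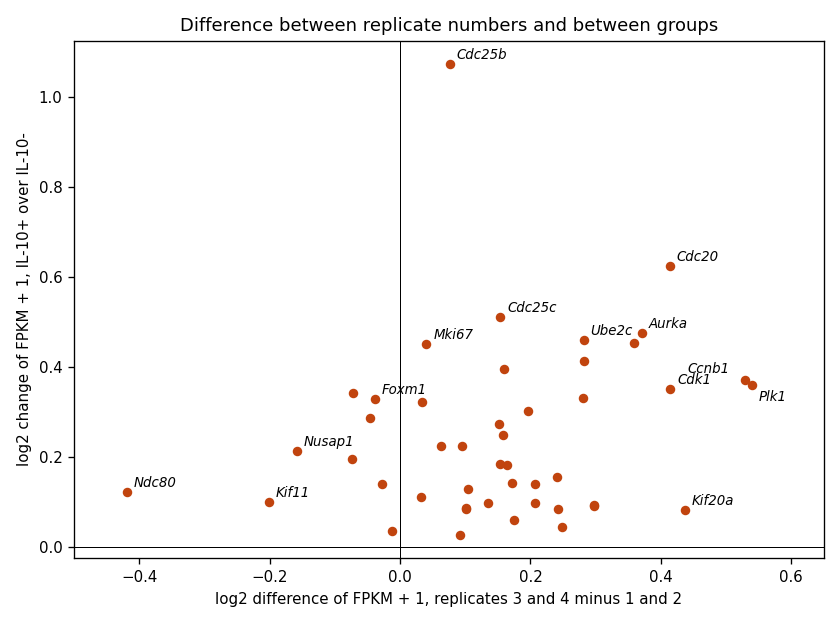
Each point is a mitosis gene, with the log2 difference of FPKM + 1 between replicates 3 and 4 and replicates 1 and 2, averaged over both groups, on the x axis and the log2 change between IL-10+ and IL-10- cells on the y axis. Cdc25b and Mki67 lie near 0 on the x axis and high on the y axis, while Kif20a (0.44 on x, 0.08 on y) and Ndc80 (-0.42 on x, 0.12 on y) differ by number more than by group.

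Other mitotic genes, on a list without any of the 46, had a smaller median change. Of 46 further mitotic genes 6 rose and 0 fell by limma (12 higher and 2 lower at an unadjusted p under 0.05). With the block 19 rose and 9 fell, and 29 of 46 had a log2 change above 0, with a median of 0.08. Of all tested genes 10.6% rose and 9.18% fell, or 20.4% and 33.3% with the block, and 39.3% had a log2 change above 0. Ska3, of the complex that holds kinetochores to microtubules, averaged 18.6 ± 1.08 FPKM in the IL-10+ libraries and 14 ± 1.81 FPKM in the IL-10- libraries (SD, n = 4 each; adjusted p = 0.0202). Cep55, of the midbody, averaged 46.7 ± 5.07 against 35.6 ± 4.2 FPKM (adjusted p = 0.0388), and Sgo1, the shugoshin that guards cohesion, 18.3 ± 0.779 against 15.0 ± 1.58 FPKM (adjusted p = 0.0466), in IL-10+ against IL-10- cells. Leaving out 1 library kept the calls of Ska3, Cep55 and Sgo1 in 5, 2 and 1 of 8 fits. The called genes of this list with smaller changes were Kif18b, Kifc1 and Aspm (adjusted p = 0.0154, 0.00956 and 0.0309). Their calls were kept in 7, 8 and 2 of 8 such fits. The number of the 46 genes that rose was 7 without IL-10- replicate 4, 4 without IL-10+ replicate 1, and 2 or 3 without any of the other libraries. Of the 46, 1 fell without IL-10+ replicate 2, 1 fell without IL-10- replicate 3, and 2 fell within replicates 3 and 4 alone. Of 8 condensin subunits 1 rose, Ncapd3 (log2 change 0.29, adjusted p = 0.0470, kept in 1 of 8 such fits and not without a filter on low values), and 5 rose with the block. Of 17 subunits and partners of the anaphase-promoting complex 0 were called by limma (1 higher and 4 lower at an unadjusted p under 0.05; 4 rose and 5 fell with the block). Its most abundant members were Anapc5, at 86.4 ± 5.2 FPKM in IL-10+ cells and 83.9 ± 5.74 FPKM in IL-10- cells, and Ube2s, at 65.3 ± 8.62 and 50.5 ± 9.70 FPKM (adjusted p = 0.741 and 0.121, or 0.194 and 0.000936 with the block).

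Genes of S phase, when DNA is copied, mostly went the other way. Of 45 S phase genes 9 fell and 0 rose by limma (12 lower and 1 higher at an unadjusted p under 0.05). With the block 27 fell and 5 rose, and the median log2 change was -0.15. Of all tested genes 9.18% fell and 10.6% rose, or 33.3% and 20.4% with the block, and their median was -0.06. A log2 change above 0 was seen in 10 of the 45, and in 39.3% of all tested genes. Within replicates 1 and 2 alone 1 fell and 0 rose, and within 3 and 4 alone 16 fell and 2 rose. Those that fell numbered 7 without IL-10- replicate 1 and 4 or 5 without any other library. Without IL-10+ replicate 1 the median log2 change of the S phase genes was -0.05, with 14 of 45 above 0. The median of all tested genes was -0.06 in that fit. With any other single library left out the S phase median lay between -0.21 and -0.08. With median-of-ratios scaling 5 fell, with scaling without immunoglobulin and mitochondrial genes 5 fell, and without a filter on low values 4 fell, and 0 rose in each. Of all tested genes 873 of 11313, 784 of 11329 and 828 of 26589 fell in those settings, in that order. Pold1, the catalytic subunit of DNA polymerase δ, averaged 46.8 ± 0.934 FPKM in the IL-10+ libraries and 63.5 ± 1.67 FPKM in the IL-10- libraries (SD, n = 4 each; log2 change -0.43, adjusted p = 0.000663). Uhrf1, which carries DNA methylation through replication, averaged 112 ± 14.1 against 151 ± 20.002 FPKM (adjusted p = 0.0461, kept in 1 of 8 fits that left out 1 library), and Chaf1b, a histone chaperone of the replication fork, 11.1 ± 0.967 against 15.0 ± 1.55 FPKM (adjusted p = 0.0165), in IL-10+ against IL-10- cells. The median FPKM of the mitosis genes divided by that of the S phase genes was 0.974, 0.80, 0.883 and 0.920 in the IL-10+ libraries, against 0.694, 0.651, 0.768 and 0.786 in the IL-10- libraries. The ranges of this ratio do not overlap. It carries no test, since the members and lists were chosen with results known.

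The regulators and brakes of the cycle were mixed. Among all tested genes 10.6% rose and 9.18% fell, or 20.4% and 33.3% with the block. Of 15 genes of the MuvB, DREAM, B-Myb and NF-Y group 1 rose and 3 fell (1 and 7 with the block; 1 rose and 1 to 3 fell with a library left out). Mybl2, which encodes B-Myb, averaged 46.2 ± 3.39 FPKM in the IL-10+ libraries and 65.9 ± 4.1 FPKM in the IL-10- libraries (SD, n = 4 each; log2 change -0.50, adjusted p = 0.00197), and so fell while Foxm1 rose. Lin54, the MuvB subunit that contacts DNA, rose (log2 change 0.40, adjusted p = 0.00317), and Nfya, a subunit of NF-Y, fell (-0.33, adjusted p = 0.0248, kept in 3 of 8 fits that left out 1 library). Of 13 tested G1 cyclins, kinases and E2F genes 3 fell and 0 rose (3 lower and 3 higher at an unadjusted p under 0.05; 6 fell and 3 rose with the block; 1 to 3 fell and 0 or 1 rose with a library left out; 1 fell without a filter on low values). These were Ccnd3, which encodes cyclin D3 (log2 change -0.74, adjusted p = 0.0246, kept in 4 of 8 such fits), E2f1 (-0.46, adjusted p = 0.0347, kept in 1 of 8) and Cdk2 (-0.36, adjusted p = 0.00229). Of 16 tested brakes 4 rose and 0 fell (5 higher and 2 lower at an unadjusted p under 0.05; 7 rose and 3 fell with the block). The largest rises were those of the Cdk4 and Cdk6 inhibitor Cdkn2b, at 4.79 ± 0.165 FPKM in IL-10+ cells and 1.5 ± 0.495 FPKM in IL-10- cells (adjusted p = 0.000291), of Cdkn2a (log2 change 1.21, adjusted p = 0.0250, kept in 4 of 8 such fits) and of the stress gene Gadd45a (1.12, adjusted p = 0.00937).

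**Figure D5:**
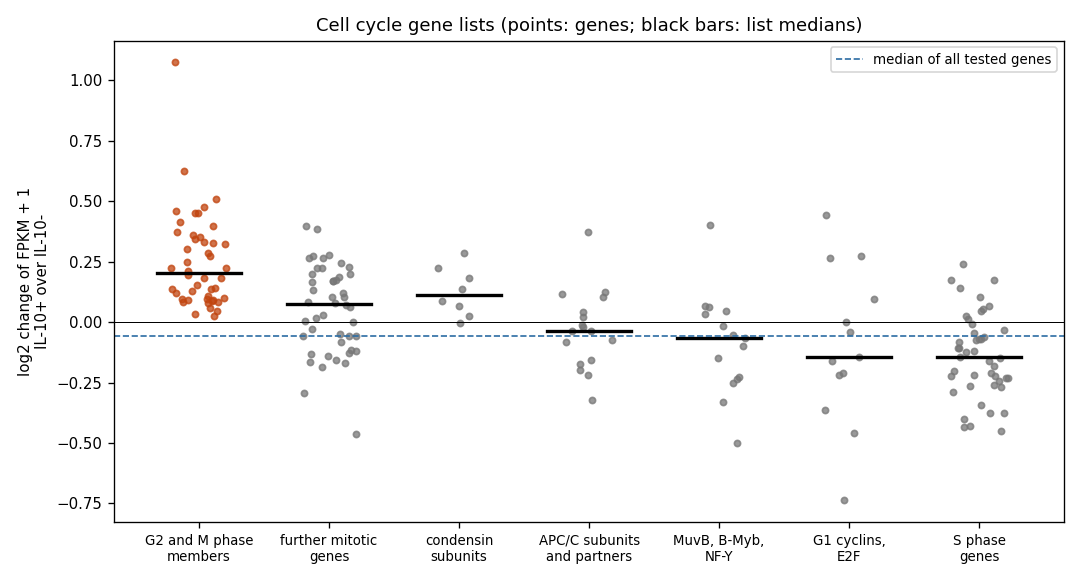
Log2 change of FPKM + 1 (y axis, IL-10+ over IL-10-) of the genes of 7 cell cycle lists (x axis; points are genes, black bars list medians, the dashed line the median of all tested genes at -0.06). The mitosis genes have a median of 0.20 with no gene under 0, and the S phase genes a median of -0.15.

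Depth was similar across libraries. Library totals recovered from the FPKM lay between 27380398 and 29968285 reads, and 41 of the 46 members came out as whole reads within 0.05, with 404 to 44523 reads per member and library. The other 5 (Kif20a, Incenp, Cdc25c, Kif11 and Ndc80) did not with GENCODE M21 lengths. Immunoglobulin genes held 13.2% to 16.8% of the FPKM of the IL-10+ libraries, against 3.73% to 4.73% in the IL-10- libraries. Without immunoglobulin and mitochondrial genes in the scaling the members' median log2 change was 0.24, and 15 rose. B cell markers summed to 2296 to 3063 FPKM in IL-10+ cells and 2599 to 3905 FPKM in IL-10- cells, and Cd22, Pax5 and Ms4a1 of the 8 fell. Plasmablast markers were also higher in IL-10+ cells: 8 of the 8 tested of 9 rose. Their sum was 1389 to 1417 FPKM in IL-10+ cells, against 322 to 456 FPKM in IL-10- cells. Their part in the higher mitosis genes was not tested. The deposited table lists only genes above 0 in some library, so no listed marker could be at 0 in all of them. Of the markers searched, 6 of 8 of erythroid cells and 4 of 5 of germinal centre B cells were listed. Markers of T cells summed to 0.377 to 2.21 FPKM in IL-10+ cells and 0.362 to 1.36 FPKM in IL-10- cells. Those of NK cells summed to 0 to 0.0598 and 0.00844 to 0.0225 FPKM, of neutrophils to 0 to 0.436 and 0.0784 to 1.36 FPKM, and of erythroid cells to 0.789 to 1.28 and 2.1 to 3.20 FPKM, in IL-10+ and IL-10- cells. Monocyte and macrophage markers summed to 6.30 to 10.1 and 6.40 to 10.8 FPKM, those of dendritic cells to 7.57 to 11.4 and 9.59 to 14.9 FPKM, and those of germinal centre B cells to 11.1 to 22.2 and 19.6 to 30.2 FPKM, in IL-10+ and IL-10- cells.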

How the data were processed

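RNA of 8 libraries was sequenced after extraction with Trizol and library preparation with a NEBNext Ultra kit, per the labels' protocols. The deposited table holds FPKM made by the authors; HISAT2 2.1.0, HTSeq 0.6.0 and build mm10 are named in the submitters' processing notes. Which annotation release and strand setting were used, and how shared reads were treated, was not given in the sources used here. Columns were matched to libraries by the names in the labels. GENCODE M21 (GRCm38, the same build) named 26517 of 26589 identifiers. Between 93.5% and 93.6% of the values above 0, times gene length and a single library total, were whole reads within 0.05.

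The 2 groups were set against each other by limma (3.58.1, R 4.3.3) on log2(FPKM + 1), a scale that understates changes of low genes. The pseudocount was 1 and the prior variance followed the mean. Tested were the 11329 genes that reached 1 FPKM in 4 or more libraries, and those with a Benjamini-Hochberg adjusted p under 0.05 over all of them count as called. Errors beside FPKM means are SD. Across genes, the correlation of deviations from the group mean between the IL-10+ and the IL-10- library of a replicate number was 0.71, 0.58, 0.62 and 0.70, in each case the highest for that library. This pairing comes from the data, not the labels, and block values are given where they change a call. The chi-square per degree of freedom between libraries of a group was 9.82 to 92.2, so none were near-copies. Alternatives were other pseudocounts, filters and scalings, the block, subsets of replicates and each library left out.

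Values in every library are given for Mki67, Cdk1, Ccnb1, Top2a, Plk1, the called members and the member with the largest change in each role group; other members so described were chosen after their values were seen. From other lists the rule takes up to 3 called genes or the 2 most abundant. The members and lists were chosen with earlier results of these data known. Promoter windows are RefSeq sequences of GRCm38.p6.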

Additional observations from a re-analysis of the deposited data

Results flagged for a closer look

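In 92 groups of 4 values (46 genes in 2 groups), 5 held a library far from the other 3 by Dixon's test; chance flags about 1 in 20. In 4 of these the library was IL-10- replicate 1, the lowest: Bub1b stood at 48.9 FPKM there and at 62.7 to 63.0 FPKM in the other 3, Cdc25c at 9.75 FPKM (others 12.3 to 12.8), Nuf2 at 9.94 FPKM (others 11.8 to 11.9) and Ttk at 8.71 FPKM (others 10.1 to 10.3). Anln in IL-10+ replicate 3 stood at 4.8 FPKM, and in the other IL-10+ libraries at 5.55 to 5.68 FPKM. Without IL-10- replicate 1 the members' median log2 change was 0.18, 11 members rose and 41 of 46 had a change above 0.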

How the results depend on the processing

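Members that rose numbered 33 with the replicate block, 40 with the block and median-of-ratios scaling, 40 with the block and scaling without immunoglobulin and mitochondrial genes, 4 within replicates 1 and 2, 21 within replicates 3 and 4, and 7 to 15 when 1 library was left out, against 13. They numbered 7 without IL-10+ replicate 3 and 7 without IL-10+ replicate 4. In the other settings they numbered 11 to 15. In all of these settings 0 members fell. Of the 13, 7 (Cdc25b, Cdc25c, Mki67, Cenpe, Foxm1, Ckap2l and Cenpa) were called in each of the 8 fits that left out 1 library, 6 lost the call in at least 1, and 4 uncalled members gained one. Of all tested genes 2236 were called, 6083 with the replicate block, 5719 with the block and median-of-ratios scaling, 5663 with the block and scaling without immunoglobulin and mitochondrial genes, 1094 within replicates 1 and 2, and 1550 to 2045 with 1 library left out. The members' median log2 change was 0.17 to 0.24 across the settings. Directions turned in uncalled members alone. Within replicates 3 and 4 the log2 change was -0.0285 for Cks2 and -0.0173 for Kif23, and within replicates 1 and 2 it was -0.0422 for Pttg1. With 1 library left out, the log2 changes ranged from -0.0024 to 0.16 for Ccna2, from -0.014 to 0.16 for Ckap2, from -0.0373 to 0.10 for Cks2, from -0.0266 to 0.20 for Kif11, from -0.0525 to 0.19 for Kif20a and from -0.0302 to 0.11 for Pttg1. The cause of these moves was not tested, except that subsets hold fewer libraries. Pseudocounts of 0.1 and 5 left 13 called.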
